A study of Mus musculus with 4 samples.

Results

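The Egr, Nr4a and Ier immediate-early genes are described here with Myc across 4 culture conditions of IMS32 cells. The members were chosen by name, with earlier results of these data known. They are Egr1, Egr2, Egr3, Nr4a1, Nr4a2, Nr4a3, Ier2, Ier3, Ier5 and Myc, which are 10 of the 31093 gene names on the array. They were represented by 12 of its 39429 probes and by 21 spots. The study asked how exogenous pyruvate affects Schwann cells under a glucose load. IMS32 is a single line of adult mouse Schwann cells, the glia that wrap peripheral axons, which became immortal spontaneously and proliferates without axons. All groups received the same DMEM with fetal bovine serum for 1 h. They were called [Glc 5 mM/Pyr (+)] with 5 mM glucose and 1 mM pyruvate, [Glc 5 mM/Pyr (−)] with 5 mM glucose and 0 mM pyruvate, [Glc 15 mM/Pyr (+)] with 15 mM glucose and 1 mM pyruvate, and [Glc 15 mM/Pyr (−)] with 15 mM glucose and 0 mM pyruvate. Total RNA of each condition was measured on 1 one-colour array, so no difference below has a replicate check and no test was made. Whether that RNA came from 1 culture or a pool is not given in the sources used here.

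Immediate-early genes are transcribed within minutes of a growth factor, calcium or stress signal by transcription factors that the cell already holds, and most of their RNAs decay quickly. Serum response factor with the Elk partners of the ERK kinase pathway, and the cAMP response element binding protein, act on many of their promoters. The Egr proteins are zinc finger transcription factors that bind GC-rich sites, the Nr4a proteins are nuclear receptors that act without a known natural hormone, and the Ier proteins are small regulators named for their early response. In Schwann cells, Egr2 (Krox20) drives the myelin genes, while Egr1 marks cells that are not making myelin.

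Each level is the background-corrected intensity of a probe before any scaling, in arbitrary units. Differences are given on the log2 scale after each array was scaled to its 75th percentile, so 1.00 is a 2-fold difference. A probe was taken as measured where the scanner software marked it well above background, and the measured probes of a gene were averaged. Intensities of different probes cannot be ranked against each other. Per array, 28472 to 30347 probes passed that mark and 0 spots were saturated. Schwann cell markers were well above background on all 4 arrays for 13 of 13 genes, among them Sox10, S100b and Ngfr, although Erbb3 and Gfap were dim. Their summed intensity was lowest in [Glc 15 mM/Pyr (−)], at 69657, and between 76929.9 and 83343 on the other arrays. Markers of other cells were also read, with 6 of 7 fibroblast genes, 5 of 5 macrophage genes, 2 of 4 endothelial genes and 2 of 6 neuronal genes well above background on all 4 arrays. The neuronal genes measured on all 4 arrays were Snap25, which was bright at 5470 to 9340, and Nefl. The endothelial genes were Kdr, bright at 4089 to 5496, and Pecam1, at 117 to 202. The markers Syt1, Nefm and Stmn2 of neurons and Cdh5 of endothelial cells were not well above background on any array. Of all these markers only the neuronal Rbfox3 and Nefl differed by 2-fold, from 20.2 to 42.7 and from 24.5 to 53.7 between 5 and 15 mM glucose without pyruvate, and both were dim. Rbfox3 was not well above background in [Glc 15 mM/Pyr (+)], at 8.90, so its level in [Glc 15 mM/Pyr (−)] was higher by at least 3.99-fold, against the lowest signal well above background on that array. The macrophage marker Cd68 was higher by 0.88 (log2) without pyruvate at 15 mM glucose, while the summed intensity of the macrophage markers there was 10558 with and 10911 without pyruvate. The part of these markers in the results below was not tested. In RNA of whole cultures, more cells that express a gene and more RNA per cell cannot be told apart.

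The error available is that within an array. It comes from 399 probes with 10 spots on each array, whose median SD between spots was 0.071 to 0.077 (log2). From such probes of like intensity, the SD of a difference between 2 arrays was 0.068 for Ier5 to 0.10 for Ier2. A gap larger than 1.96 times this SD is called larger than the within-array error below. It leaves out the variation between cultures, which these arrays cannot give.

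The probes that carry the results are 60 bases long and lie in the transcripts. The first 3 below belong to members measured on all 4 arrays: the Ier genes with the widest differences, and Nr4a2 with the narrowest. The last pair belongs to Egr3 and Nr4a3, which could not be measured.
Ier2 probe, mm9 chr8:87186214-87186273, minus strand: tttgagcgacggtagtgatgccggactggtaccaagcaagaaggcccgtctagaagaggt
Ier5 probe, mm9 chr1:156945765-156945824, minus strand: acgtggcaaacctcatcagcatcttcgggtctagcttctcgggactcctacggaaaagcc
Nr4a2 probe, mm9 chr2:56960699-56960758, minus strand: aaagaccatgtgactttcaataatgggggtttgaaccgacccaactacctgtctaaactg
Egr3 probe, mm9 chr14:70479222-70479281, plus strand: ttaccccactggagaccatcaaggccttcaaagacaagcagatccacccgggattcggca
Nr4a3 probe, listed without a position in the files: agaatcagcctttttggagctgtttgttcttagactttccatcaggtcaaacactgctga

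Without pyruvate at 15 mM glucose, Egr1, Ier2 and Ier5 were at least 1.5-fold higher than with pyruvate and Ier3 was at that line, while Nr4a1 was a little higher, Nr4a2 and Myc were level and Egr2 was lower. At 5 mM glucose none of them was higher by more than the within-array error without pyruvate, and Egr1, Egr2, Nr4a1, Ier2, Ier3 and Myc were lower. The highest array was [Glc 15 mM/Pyr (−)] for Egr1, Ier2, Ier3 and Ier5, and [Glc 5 mM/Pyr (+)] for Egr2, Nr4a1 and Myc. The plot of levels by condition shows the 8 measured genes.

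**Figure D1:**
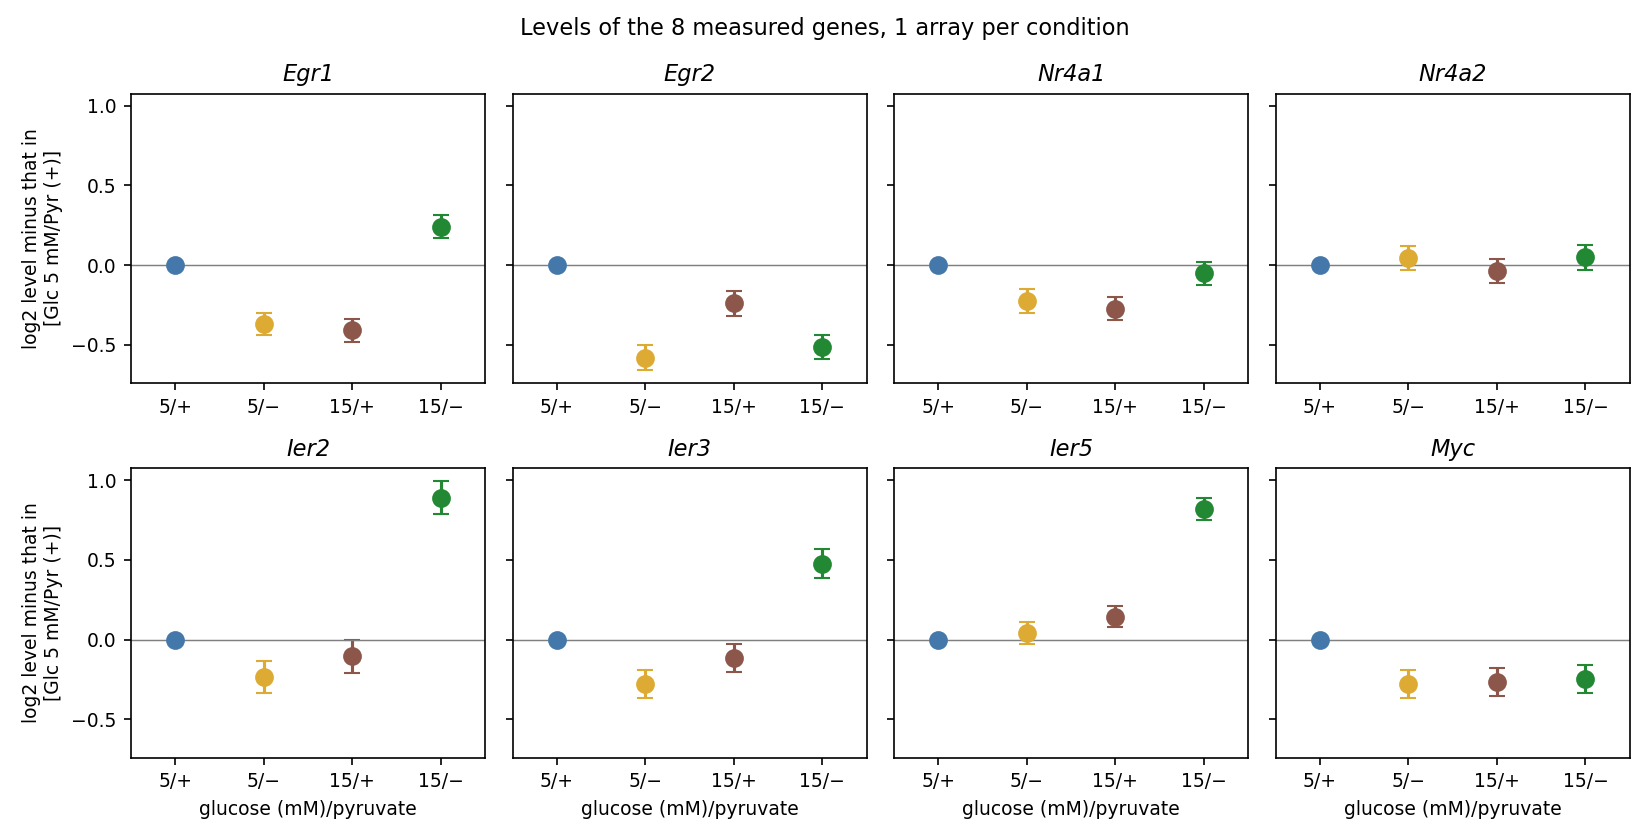
Scaled log2 level of each measured gene in the 4 conditions, minus its level in [Glc 5 mM/Pyr (+)], with glucose in mM and pyruvate (+ or −) on the x axis. Points are single arrays and bars are the SD of a difference within arrays. Ier2, Ier3 and Ier5 have 1 high array, [Glc 15 mM/Pyr (−)], whereas Egr2 is lower on both arrays without pyruvate and Nr4a2 is flat.

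Among the Egr genes, Egr1, a transcription factor that answers growth factor and stress signals, was bright on every array. Its intensity was 32468 with and 24462 without pyruvate at 5 mM glucose, and 21853 with and 35013 without it at 15 mM. The order was [Glc 15 mM/Pyr (−)] first and [Glc 5 mM/Pyr (+)] second, followed by the other two, which did not differ beyond the within-array error. The difference Pyr (−) minus Pyr (+) was -0.37 at 5 mM and 0.65, or 1.57-fold, at 15 mM, with an SD of 0.071 within arrays. Egr1 was thus lower without pyruvate at 5 mM glucose, and at 15 mM it was higher.

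Egr2, the regulator of the myelin programme, had another order. Its intensity was 17165 with and 11169 without pyruvate at 5 mM glucose, and 12990.5 with and 10976 without it at 15 mM, from a probe at mm9 chr10:67004798-67004857 on the plus strand. Both arrays with pyruvate were above both arrays without it, and the 2 arrays without pyruvate did not differ beyond the within-array error. The difference without pyruvate was -0.58 at 5 mM and -0.27 at 15 mM, with an SD of 0.077 within arrays. Egr2 had the lowest pyruvate difference of the 8 measured members at either glucose concentration. At 5 mM glucose it ranked 426 from the bottom of 22952 measured genes.

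Egr3, a relative of Egr1 that is induced by the same signals, was not well above background on any array. Its intensity was 6.96 with and 6.82 without pyruvate at 5 mM glucose, and 5.47 with and 5.08 without it at 15 mM. These values have no order, and no difference is given.

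The Nr4a receptors split into a bright, a dim and an unmeasured gene. Nr4a1 (Nur77), which is induced by growth factors and calcium, gave 23319 with and 19406 without pyruvate at 5 mM glucose, and 17248 with and 20541 without it at 15 mM, from a probe at mm9 chr15:101105071-101105130 on the plus strand. Its 2 high arrays were [Glc 15 mM/Pyr (−)] and the array with pyruvate at 5 mM glucose, which did not differ beyond the within-array error, nor did its 2 low arrays. The difference without pyruvate was -0.23 at 5 mM and 0.22 at 15 mM, with an SD of 0.074. Both were larger than the within-array error, with opposite signs, and neither was over 1.17-fold in size.

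Nr4a2 (Nurr1), known for its role in dopamine neurons, was read by 2 probes. The first, whose sequence is given above, gave 789.9 with and 854 without pyruvate at 5 mM glucose, and 714 with and 759.5 without it at 15 mM. The second, at mm9 chr2:56959637-56959696 on the minus strand, gave 222, 206, 186 and 205 in the same order. Averaged over both probes, the 4 levels lay within 0.09 of each other on the log2 scale, and no step between neighbours in the order was larger than the within-array error. The pyruvate difference was 0.04 at 5 mM glucose, where the probes had opposite signs (0.15 and -0.06), and 0.09 at 15 mM glucose, with an SD of 0.076 for the mean.

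Nr4a3 (Nor1), the remaining receptor of the family, was printed 10 times on each array. On every array 9 of the 10 spots were not well above background, with intensities between 1.90 and 11.03 over the 4 arrays. The remaining spot was marked as an outlier on every array and read 37.9 with and 27.3 without pyruvate at 5 mM glucose, and 23.6 with and 22.2 without it at 15 mM. Without it, Nr4a3 has no measured level in any condition.

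All 3 Ier genes were highest in [Glc 15 mM/Pyr (−)], and neighbours in the order of the other 3 arrays did not differ beyond the within-array error for any of them. The highest and lowest of those other 3 arrays did differ beyond it for each gene. Ier2, a short gene for a nuclear protein induced by serum, gave 372 with and 308 without pyruvate at 5 mM glucose, and 309 with and 630.3 without it at 15 mM. The pyruvate difference was -0.23 at 5 mM and 1.00 at 15 mM, with an SD of 0.10. At 15 mM this is 1.99-fold, just below the 2-fold line. Ier2 had the widest range of the 8 measured members, 2.18-fold between its highest and lowest arrays.

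Ier3 (IEX-1), a regulator of cell survival and of ERK signalling, gave 3123 with and 2506 without pyruvate at 5 mM glucose, and 2576 with and 3966 without it at 15 mM, from a probe at mm9 chr17:35959528-35959587 on the plus strand. Only [Glc 15 mM/Pyr (−)] stood above the rest. The pyruvate difference was -0.28 at 5 mM and 0.59, or 1.51-fold, at 15 mM, with an SD of 0.090. The value at 15 mM passed 1.5-fold in 5 of 11 settings of scaling, background correction, filter and probe choice. These 5 were the main setting and those of filter, probe choice and outlier spots, which hardly act on a gene with 1 probe and 1 spot. Under every other scaling or background correction it was below that line.

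Ier5, which is known as a partner of heat shock factor HSF1 and of the phosphatase PP2A, was read by 2 probes. The probe shown above gave 654 with and 626 without pyruvate at 5 mM glucose, and 662 with and 1052 without it at 15 mM. The other, at mm9 chr1:156943530-156943589 on the minus strand, gave 809.7, 852, 781 and 1309 in the same order. Both probes were highest in [Glc 15 mM/Pyr (−)], with pyruvate differences at 15 mM glucose of 0.64 and 0.71. Their mean was 0.04 at 5 mM and 0.68, or 1.60-fold, at 15 mM, with an SD of 0.068. Unlike Ier2 and Ier3, Ier5 was therefore not lower without pyruvate at 5 mM glucose in this scaling, where its probes had opposite signs (-0.03 and 0.11). Under spike-in scaling its mean there was -0.15.

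Myc, a transcription factor that drives ribosome production and growth, gave 6216 with and 4988 without pyruvate at 5 mM glucose, and 4628 with and 4788 without it at 15 mM, from a probe at mm9 chr15:61821417-61821476 on the plus strand. It was highest in [Glc 5 mM/Pyr (+)], and the other 3 arrays did not differ beyond the within-array error. The pyruvate difference was -0.28 at 5 mM and 0.02 at 15 mM, with an SD of 0.087. Myc was therefore level at 15 mM glucose, where Egr1 and the Ier genes were not.

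Taken by counts, 8 of the 10 members were measured in every comparison. Because earlier results of these data were known when the members were chosen, the shares of all genes beside the counts are a description. The number of members that differed by 2-fold with pyruvate was 0 of 8 at 5 mM glucose, against 1.2% of all measured genes, and 0 of 8 at 15 mM glucose, against 2.16%. At 1.5-fold, 4 of 8 (Egr1, Ier2, Ier3 and Ier5) were higher without pyruvate at 15 mM glucose, against 3.1% of all measured genes, and 0 were lower, against 3.67%. Under 6 of the 11 settings Ier3 fell below that line and the count was 3. At 5 mM glucose 0 of 8 were 1.5-fold higher, against 1.65%, and 0 were 1.5-fold lower, against 1.83%, with Egr2 just short of that line at a log2 difference of -0.58. Egr2 passed it at -0.59 under quantile normalization and at -0.77 under spike-in scaling, in 2 of the 11 settings. By sign alone, 6 of 8 were below 0 at 5 mM glucose, against 56.1% of all genes, and 7 of 8 were above 0 at 15 mM glucose, against 56.8%. The median of the members was -0.26 at 5 mM and 0.41 at 15 mM, and that of all genes was -0.02 and 0.03.

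The pyruvate differences at 5 and 15 mM glucose share no array and can be set side by side. Egr1, Nr4a1, Ier2 and Ier3 had opposite signs at the 2 glucose concentrations, each larger than the within-array error, against 2.19% of 21099 genes under the same rule, and 1.09% that like these were lower at 5 mM and higher at 15 mM. In 0 of the 4 did both differences reach 1.5-fold. For Ier2 the difference at 5 mM was -0.23, close to its within-array limit of 0.20. Under normexp background correction it was -0.19, inside that limit. The difference at 15 mM minus that at 5 mM glucose was above 0 for 8 of 8 members, against 58.7% of all genes. It was 2-fold or more for 2 of 8, against 2.86% of all genes counted in either direction. These were Ier2 at 1.23 (SD 0.14 within arrays) and Egr1 at 1.02 (SD 0.10), of which Ier2 passed 2-fold in 11 of 11 settings of scaling and probe choice and Egr1 in 7 of 11. Both have 1 probe and 1 spot, on which the settings of filter, probe choice and outlier spots hardly act. Ier3 followed at 0.87, Ier5 at 0.63, Nr4a1 at 0.45, Egr2 at 0.31, Myc at 0.30 and Nr4a2 at 0.04. The value of Nr4a2 was within the error, was above 0 in 8 of the 11 settings and reached -0.09 with the brightest probe of each gene. For Egr2 and Myc the pyruvate difference was below 0 at 5 mM glucose, at -0.58 and -0.28. At 15 mM glucose it was -0.27 and 0.02, so neither was higher there beyond the within-array error. Both genes were highest in [Glc 5 mM/Pyr (+)].

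**Figure D2:**
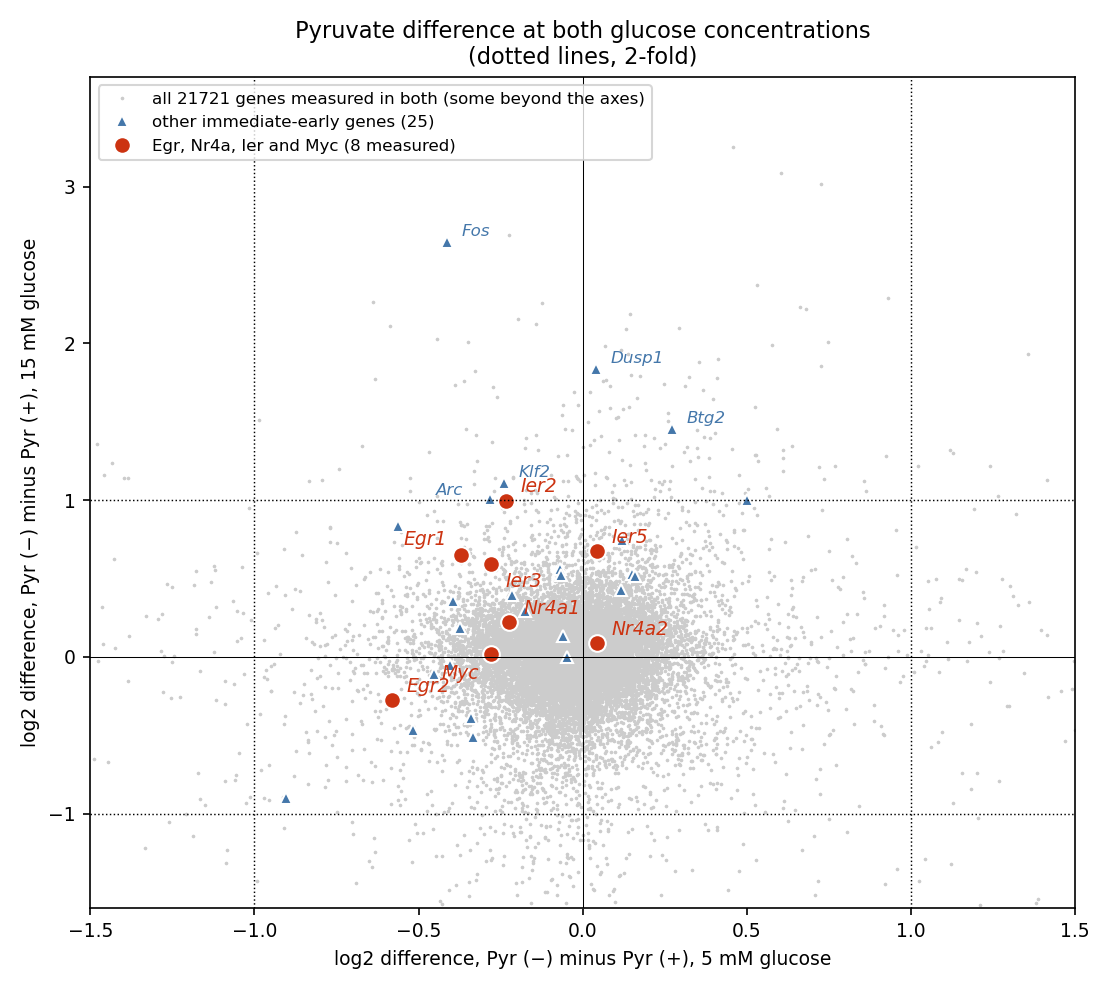
Difference Pyr (−) minus Pyr (+) on the log2 scale at 5 mM glucose (x axis) and 15 mM glucose (y axis), 1 point per gene and 1 array per condition. Red circles are the 8 measured members, blue triangles are 25 other immediate-early genes and grey points are all 21721 genes measured in both. Ier2 lies just under the 2-fold line at 15 mM glucose, and Egr2 lies below 0 on both axes.

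The glucose differences use the same 4 arrays as the pyruvate differences and are not independent of them. With pyruvate, 15 minus 5 mM glucose was -0.41 for Egr1, -0.24 for Egr2, -0.27 for Nr4a1 and -0.26 for Myc, each larger than the within-array error. It was -0.10 for Ier2, -0.12 for Ier3 and -0.04 for Nr4a2, all within the error, and 0.15 for Ier5, which was larger than the error and the single member above 0, but was at -0.21 under spike-in scaling. The number past 2-fold was 0 of 8, against 1.01% of all genes, and 7 of 8 were below 0, against 55.6%. With pyruvate present, Egr1, Egr2, Nr4a1 and Myc were thus lower at the higher glucose concentration, by no more than 1.33-fold in the 75th percentile scaling. Under spike-in scaling, which lowered the median of all genes by 0.35, all 4 were past 1.5-fold, at -0.76, -0.59, -0.62 and -0.61.

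Without pyruvate the glucose differences of the same genes were higher. They were 1.13 for Ier2, or 2.18-fold, 0.78 for Ier5, 0.75 for Ier3 and 0.61 for Egr1. Nr4a1 was at 0.17, and Egr2, Myc and Nr4a2 lay within the error at 0.07, 0.03 and 0.01. Ier2 was the 1 member of 8 past 2-fold, against 2.46% of all genes, and 8 of 8 were above 0, against 56.2%, although Egr2, Nr4a1, Nr4a2 and Myc fell below 0 when arrays were scaled to spike-in probes. Ier2 was then at 0.93, under 2-fold. Spike-in scaling was not the only setting with such a change. Over the 11 settings Nr4a2 was above 0 in 6, Egr2 and Myc in 9 each and Nr4a1 in 10. At 1.5-fold, 4 of 8 (Egr1, Ier2, Ier3 and Ier5) were higher, against 2.94% of all genes. That count was 3, without Egr1, under quantile normalization, cyclic loess and the percentile over probes measured on all arrays, and 1, Ier2 alone, under spike-in scaling, with Egr1 at 0.41, Ier3 at 0.56 and Ier5 at 0.58.

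The genes whose pattern was most like Ier2 were found among 21710 genes by the root mean square distance of the 4 centred log2 levels, 1 per array. The 5 nearest were 4930435H24Rik at 0.036, Klf2 at 0.046, ENSMUST00000119106 at 0.048, Foxo4 at 0.053 and Snhg9 at 0.054. All but Klf2 were dim, with intensities of 14.4 to 74.8. Foxo4 is a forkhead transcription factor and Snhg9 a non-coding RNA that hosts a small nucleolar RNA. Klf2, a zinc finger factor that is itself an early response gene, gave 1283 with and 1057 without pyruvate at 5 mM glucose, and 1053 with and 2322 without it at 15 mM. Among the members, Ier5 was nearest to Ier2 at 0.15, with 94 genes nearer, and then Ier3 at 0.17, with 146 nearer. Egr1 followed at 0.24, and Egr2 was farthest at 0.55, with 18360 genes nearer. Over only 4 arrays this likeness is a description.

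Promoters were read from RefSeq sequence on GRCm38.p6. Windows were at hand for 6 members, namely Ier5, Nr4a2, Nr4a3, Egr2 (with 5 start sites), Nr4a1 and Ier3, and not for Egr1, Egr3, Ier2 and Myc. A motif was counted for Egr2 where any of its 5 windows held it. The 250 bases before the start are shown for Ier5 and Ier3, which were higher in [Glc 15 mM/Pyr (−)], and for Nr4a2, which was level. Capitals mark 3 motifs searched on both strands, with overlapping matches run together. The first is TGACG, the core of the site bound by the cAMP response element binding protein. The second is GGGCGG, to which the factor Sp1 binds. The third is TATAA, the core of the box that places the start of transcription in some promoters.
Ier5, chr1:155099637-155099886, minus strand: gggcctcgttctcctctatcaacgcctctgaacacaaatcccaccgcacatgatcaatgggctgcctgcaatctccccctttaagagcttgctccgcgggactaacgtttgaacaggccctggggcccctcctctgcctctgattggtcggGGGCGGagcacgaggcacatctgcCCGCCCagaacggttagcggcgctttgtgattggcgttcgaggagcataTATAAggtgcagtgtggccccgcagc
Ier3, chr17:35821463-35821712, plus strand: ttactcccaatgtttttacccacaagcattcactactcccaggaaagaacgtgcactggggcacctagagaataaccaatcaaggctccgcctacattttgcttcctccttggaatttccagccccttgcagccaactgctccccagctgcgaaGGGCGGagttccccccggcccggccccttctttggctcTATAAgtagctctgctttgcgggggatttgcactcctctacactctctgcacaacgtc
Nr4a2, chr2:57124004-57124253, minus strand: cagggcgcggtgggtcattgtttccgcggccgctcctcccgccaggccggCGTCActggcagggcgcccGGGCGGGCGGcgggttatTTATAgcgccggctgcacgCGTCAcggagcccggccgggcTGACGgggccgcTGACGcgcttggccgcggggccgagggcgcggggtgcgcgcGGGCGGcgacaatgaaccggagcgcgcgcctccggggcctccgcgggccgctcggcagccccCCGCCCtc

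TGACG was in the windows of 4 of the 6 members (Nr4a1, Nr4a2, Nr4a3 and Egr2), against 17.8% of 32851 windows of the same length, and was not found in those of Ier3 and Ier5. Nr4a2 held it 4 times. GGGCGG was in 6 of 6, against 32.7%, and TATAA was in 4 of 6, against 22.8%, with the match of Ier5 lying 26 to 22 bases before the start. The CArG box, to which serum response factor binds, was in the windows of Egr2 alone, against 1.47% of all windows. The Egr site GCGGGGGCG was in that of Nr4a1 alone, against 2.57%, and the full palindrome TGACGTCA was in 0 of 6, against 1.55%. The E-box CACGTG of Myc was in 1 of 6 (Egr2), against 6.02%, while the AP-1 site TGACTCA was in 0 of 6, against 4.46%. The site of Nr4a monomers, AAAGGTCA, was also in 0 of 6, against 1.34%. A match is a description of the sequence, and sites lying farther from the start would not be seen.

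The other genes of the pathway are given from lists, which were also chosen with earlier results of these data known. Among 25 other immediate-early genes, all measured, 5 were 2-fold higher without pyruvate at 15 mM glucose, against 0.991% of all measured genes, and 0 were lower, against 1.17%. Those 5 were Fos at 2.65 (a subunit of AP-1), Dusp1 at 1.84 (a phosphatase that turns off MAP kinases), Btg2 at 1.45 (a growth inhibitor), Klf2 at 1.11 and Arc at 1.01. Arc, a regulator of the actin skeleton and of synapses, gave 261 with and 209 without pyruvate at 5 mM glucose, and 185 with and 381 without it at 15 mM, so its order was that of Egr1. At 5 mM glucose 0 of the 25 differed by 2-fold, against 1.2% of all genes, and 18 of 25 were below 0, against 56.1%. The median of the list was -0.22 at 5 mM and 0.43 at 15 mM, beside -0.26 and 0.41 for the members. For glucose it was -0.12 with pyruvate and 0.45 without pyruvate, where 4 of 25 were 2-fold higher, against 0.976% of all genes.

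None of the genes on the other lists differed by 2-fold in any of the 4 comparisons, so the gene with the largest difference is named for most of them. Of 15 transcription factors that act on these genes, which include Srf, Creb1 and the Mef2 factors, the median was -0.01 at 5 mM and -0.09 at 15 mM glucose without pyruvate. The largest difference was -0.34 for Elk1, the ERK-activated partner of serum response factor, at 5 mM glucose. Of 14 genes of the ERK cascade, the medians were -0.04 and 0.02, and the largest difference was -0.56 for Braf, a kinase upstream of ERK, between 15 and 5 mM glucose without pyruvate. In both lists, no gene reached 1.5-fold in any of the 4 comparisons.

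Corepressors and partners of the members had 12 of 15 genes measured, with medians of 0.01 and 0.02 for pyruvate at 5 and 15 mM glucose. The largest difference was 0.62 for Mxd1, which competes with Myc for its partner Max, at 15 mM glucose. Nab1 and Nab2, which bind and restrain Egr1 and Egr2, were at -0.07 and 0.00 there. Of the family members outside the 10, Egr4 and Mycn were not well above background on any array, and Ier5l was at -0.11 at 15 mM glucose. Mycl, which was dim and had a largest difference of 0.34 at 5 mM glucose, was not well above background in [Glc 15 mM/Pyr (−)]. Ier3ip1, which was listed with them but is named as an interacting protein of Ier3 and is not an Ier gene, was at 0.26 at 15 mM glucose.

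No target gene of Myc or Egr2 on the lists reached 1.5-fold in any of the 4 comparisons. Of 16 Myc target genes, some of them for ribosome production, the medians were -0.01 and 0.08 for pyruvate at 5 and 15 mM glucose. The largest difference was -0.37 for Polr1b, a subunit of RNA polymerase I, between 15 and 5 mM glucose with pyruvate. Of 12 Egr2 target genes of Schwann cells, the medians were 0.04 and 0.09.

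**Figure D3:**
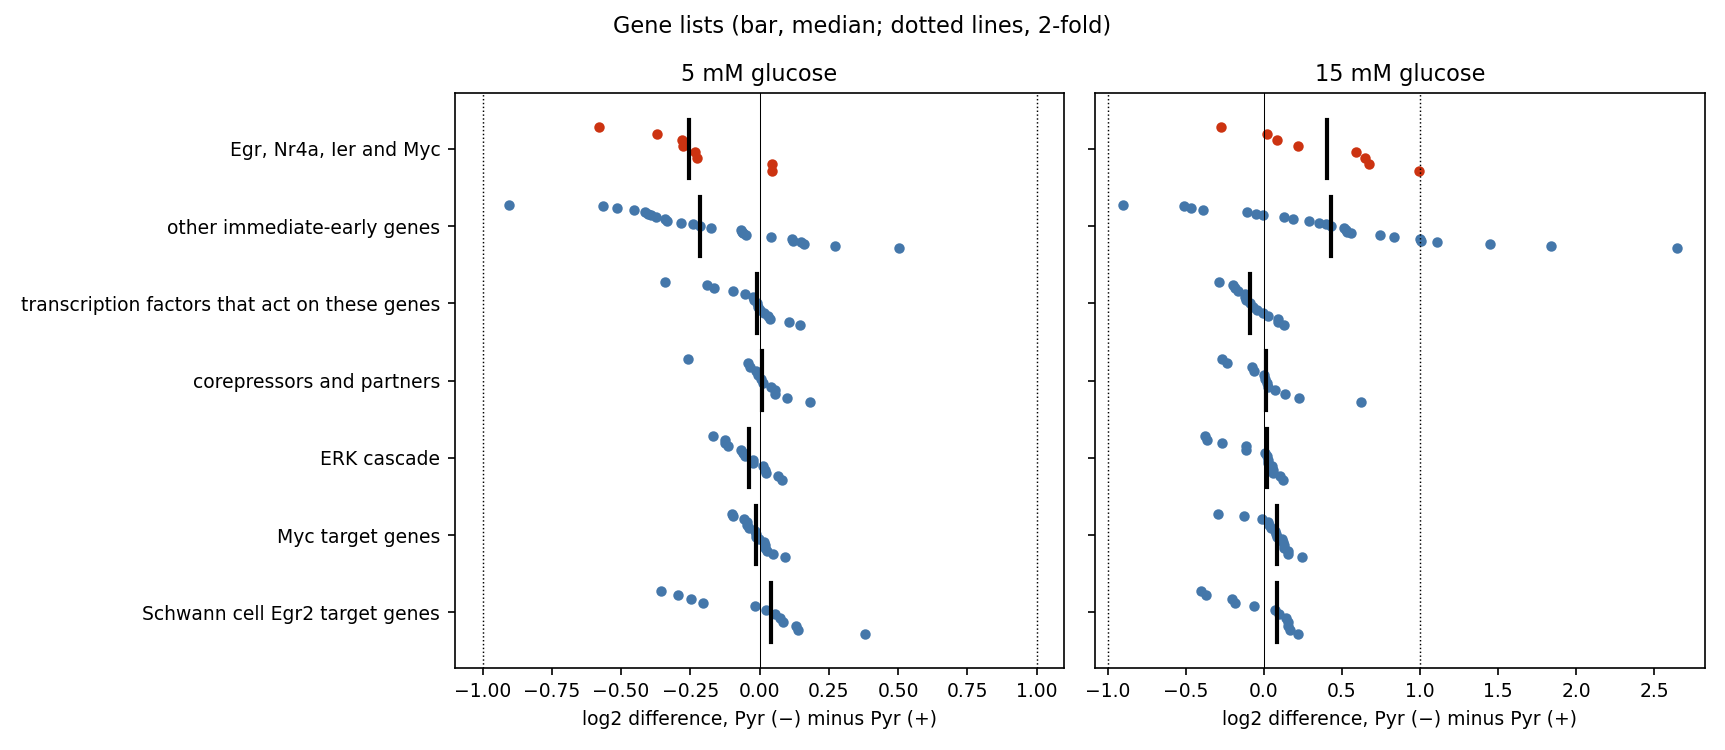
Difference Pyr (−) minus Pyr (+) on the log2 scale for each measured gene of 7 lists at 5 mM (left) and 15 mM glucose (right), with 1 point per gene, a bar at the median and 1 array per condition. The members and the other immediate-early genes have medians of 0.41 and 0.43 at 15 mM glucose, while the other lists have medians between -0.09 and 0.09.

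The members are short genes. On GRCm38.p6 their median length was 5159 bases, from 1199 for Ier3 to 41370 for Nr4a3, against 20652 bases for 15325 measured protein-coding genes, and 7 of 10 were below the lower quartile of 8161 bases. Gene length moved with the pyruvate difference at 15 mM glucose across the array. Among 3645 coding genes in the shortest of 4 equal length groups, read on all 4 arrays, 4.66% were 1.5-fold higher without pyruvate at 15 mM glucose, against 1.26% in the longest group. Of the 8 measured members, 6 lie in the shortest group, of which Egr1, Ier2, Ier5 and, at the line, Ier3 were 1.5-fold higher and Egr2 and Myc were not. The part of length in these results was not tested.

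**Figure D4:**
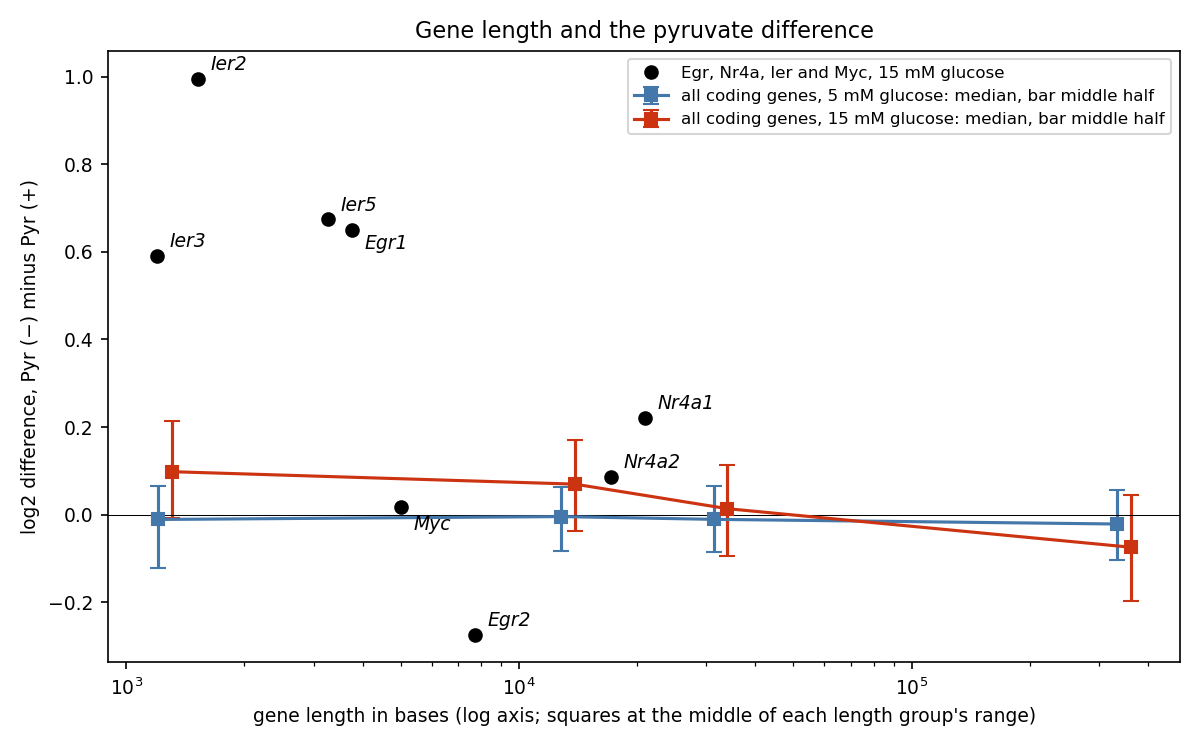
Difference Pyr (−) minus Pyr (+) on the log2 scale against gene length in bases (log axis). Squares are medians over 4 equal length groups of the coding genes read on all 4 arrays, with bars over the middle 50% of genes, at 5 mM (blue) and 15 mM glucose (red), and black points are the measured members at 15 mM glucose. The red medians run from 0.10 in the shortest group to -0.07 in the longest, and Ier2, Ier3, Ier5 and Egr1 lie above the bar of the shortest group.

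The differences at 15 mM glucose kept their size across the 11 settings of scaling, background correction, filter and probe choice, as the plot of ranges shows. For members with 1 probe and 1 spot, the settings of filter, probe choice and outlier spots hardly act, so agreement there was fixed in advance. The deposited ratio and the percentile over probes measured on all arrays only move all genes of a comparison by 1 amount. The range was 0.61 to 0.65 for Egr1, 0.87 to 1.01 for Ier2, 0.56 to 0.59 for Ier3, 0.61 to 0.71 for Ier5 and -0.31 to -0.27 for Egr2. Ier2 passed 2-fold in 1 of the 11 settings. Myc, near 0, was below 0 in 2 of the 11. At 5 mM glucose the signs of Nr4a2 and Ier5 turned to -0.15 each when arrays were scaled to the spike-in probes, which lowered the median of all genes by 0.19. That scaling moves every gene of a comparison by the same amount, so the distance of the members to all genes is unchanged by construction.

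**Figure D5:**
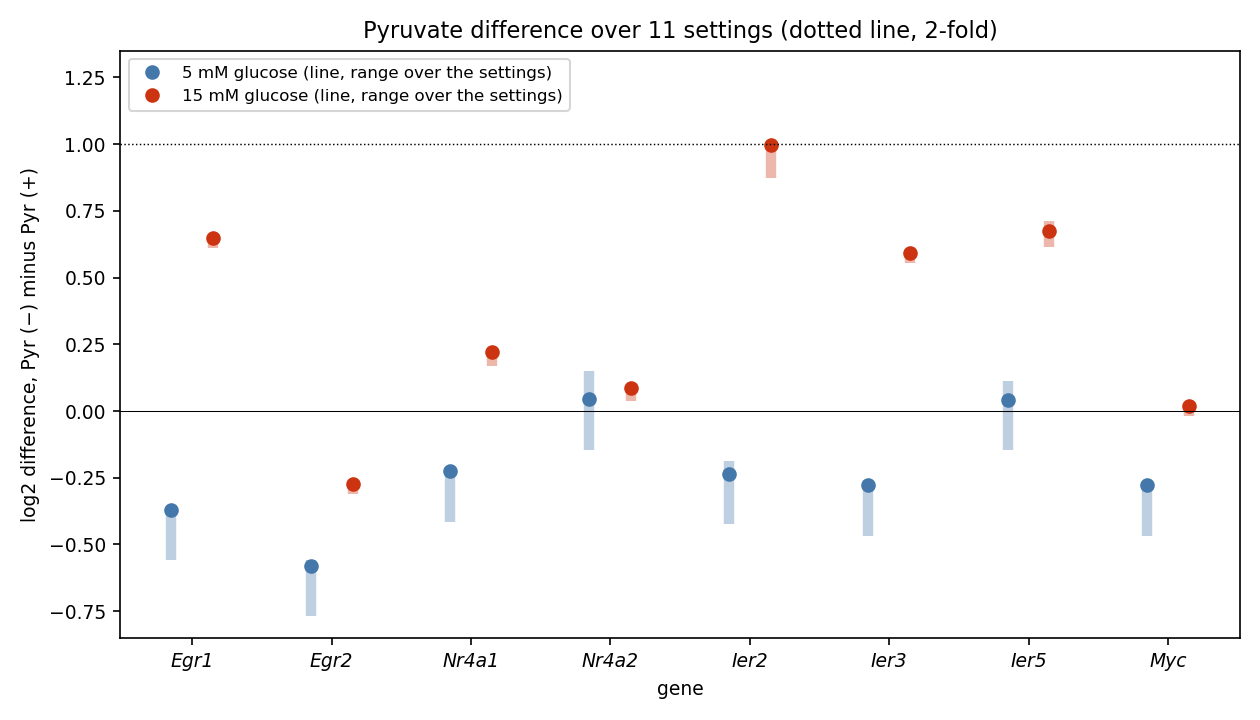
Difference Pyr (−) minus Pyr (+) on the log2 scale for each measured member at 5 mM (blue) and 15 mM glucose (red), with 1 array per condition. Points are the values reported and lines span the 11 settings. The lines of Egr1, Ier2, Ier3 and Ier5 at 15 mM glucose stay above 0.55, and the blue lines reach lower because of the spike-in scaling.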

How the data were processed

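Cy3-labelled cRNA of IMS32 cells under 4 conditions was hybridized to Agilent mouse arrays, 1 per condition. The authors deposited scanner files (Feature Extraction 11.5.1.1) with a processed spot intensity, background-corrected and not scaled between arrays, and marks for outlier spots and spots well above background. A second table, in which the authors deposited a ratio, was the same intensity divided by 1 number per array (44397 of 44397 features within 1e-05).

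Control and outlier spots were left out, spots of 1 probe averaged, and log2 intensity taken minus the 75th percentile of each array. The fold limit was 2, with 1.5 as an alternative. Normalization alternatives used limma 3.58.1 in R 4.3.3, and the rest Python 3.11.15, numpy 2.4.6 and pandas 2.3.3. Probe positions are in mm9, and promoters and gene lengths are RefSeq on GRCm38.p6, in which all 10 members matched a symbol.

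Named genes were all 10 members, list genes past 2-fold or the largest of each list, the 5 nearest in pattern to the member of widest range, and defining markers. Srf, Creb1, Nab1, Nab2, Ctgf, Ier3ip1, the markers Snap25, Kdr and Pecam1, and the family members outside the 10 are named besides. One gene that this rule takes is not reported here. The members and lists were chosen with earlier results of these data known. With 1 array per condition, their number limits the precision, and replicate tests were not possible.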

Additional observations from a re-analysis of the deposited data

How the results depend on the processing

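Of 1008 values recalculated, 917 stayed within the within-array SD of a difference or, for counts, within 1.5 times, 91 moved further, and 0 of the member differences past 2-fold changed sign. Scaled to 8 of 10 spike-in probes, the median of the members was -0.44 for pyruvate at 5 mM, -0.53 for glucose with pyruvate, 0.19 for glucose without pyruvate and 0.69 for the crossed difference (15 mM minus 5 mM pyruvate difference), and Ier2 lost its 2-fold call for glucose without pyruvate (0 members, at 0.93). That median was 0.30 with quantile and 0.31 with cyclic loess normalization. Without pyruvate, spike-in scaling put the glucose differences of Egr2, Nr4a1, Nr4a2 and Myc at -0.13, -0.02, -0.19 and -0.16, and with pyruvate that of Ier5 at -0.21, past the within-array error with the opposite sign. With spike-in scaling the other immediate-early genes had medians of -0.40, -0.47 and 0.25 for pyruvate at 5 mM, glucose with and glucose without pyruvate, and 1 of them passed 2-fold at 5 mM. The pyruvate medians at 5 mM were then -0.20 for transcription factors, -0.18 for corepressors, -0.23 for the ERK cascade, -0.20 for Myc targets and -0.15 for Egr2 targets, the last -0.060 at 15 mM under normexp.

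The number of members past 2-fold was 1 for pyruvate at 15 mM under quantile normalization, and 1 for the crossed difference under the percentile over probes measured on all arrays, quantile, cyclic loess and the deposited ratio, since Egr1 ranged from 0.995 to 1.17. At 1.5-fold, with the 75th percentile scaling, it was 4 in each of these and for glucose without pyruvate. Counted over the 11 settings, a step added after seeing the data, it ran from 3 to 4 for pyruvate at 15 mM, from 1 to 4 for glucose without pyruvate and from 3 to 5 for the crossed difference, where Ier5 was at 0.56 under normexp. At 1.5-fold, 8 of 25 other immediate-early genes were higher without pyruvate at 15 mM, against 3.1% of all genes. There 1 was lower, against 3.67%. At 5 mM 0 were higher, against 1.65%, and 1 was lower, against 1.83%. The lower gene was Ctgf both times, at -0.90. For glucose with pyruvate 0 were higher, against 1.21%, and 1 was lower, against 2.12%. Without pyruvate 8 were higher, against 2.94%, and 0 were lower, against 4.5%. Of 12 measured corepressors and partners, 1 was higher at 15 mM, against 3.1%.

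All genes past 2-fold numbered 275, 473, 224, 546 and 622 for pyruvate at 5 and 15 mM, glucose with and without pyruvate, and the crossed difference. They were 9, 88, 7, 92 and 110 under normexp, 1296, 2052, 1290, 2200 and 2979 with no filter on dim probes, and 798, 1483, 741, 1653 and 1962 at 1.5-fold. They were 177 for pyruvate at 5 mM over probes measured on all arrays and 412 for glucose with pyruvate under spike-in scaling. Under spike-in scaling the 2-fold split was 50 higher and 362 lower there, against 100 and 124, 86 and 223 against 129 and 146 for pyruvate at 5 mM, and 141 and 538 against 217 and 329 for glucose without pyruvate. The causes were not tested. No paired analysis was possible because each condition has 1 array. Signals near background limit Egr3 and Nr4a3.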

Other observations

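Across the array, the pyruvate difference at 15 mM glucose ran with gene length. Over 14580 protein-coding genes well above background on all 4 arrays, split into 4 equal groups by length, its median was 0.10 in the shortest group (186 to 8477 bases), then 0.07, 0.01 and -0.07 in the longest (from 50713 bases). The glucose difference without pyruvate, which shares the [Glc 15 mM/Pyr (−)] array, had medians of 0.12, 0.08, 0.01 and -0.09. The pyruvate difference at 5 mM glucose was nearly flat, with medians between -0.02 and 0.00. The order at 15 mM glucose was the same under quantile normalization (0.08 to -0.09), cyclic loess (0.08 to -0.10), spike-in scaling (0.06 to -0.11) and normexp (0.03 to -0.11). Within 3 equal groups by signal, the share 1.5-fold higher without pyruvate at 15 mM glucose was 7.64% of the shortest genes and 3.23% of the longest in the dimmest group, 4.27% and 0.27% in the middle group, and 1.40% and 0.11% in the brightest. The dimmest group held 116 of the 170 shortest genes that were 1.5-fold higher. These groups were chosen after the data were seen, and the cause was not tested.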
